A study of Mus musculus with 6 samples.

Results

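Ependymal motile cilia genes were followed in brain RNA from C57BL/6 mice at 30 days after cranial X-ray exposure or mock exposure. The members were 10 genes chosen by symbol as markers of ependymal cells or as parts of the motile cilium: Foxj1, Rsph1, Rsph4a, Tmem212, Ccdc153, Dynlrb2, Mia, Hydin, Dnah5 and Dnah11. All 10 were found among the 23057 genes of the deposited table. The irradiated group held 3 mice that received 10 Gy in total from the front to the back of the head, through a collimator with a field 10.08 mm in diameter, and the mock group held 3 mice. All 6 mice were of the same strain, have no transgene named in their labels, and were perfused before RNA was taken from the dissected brain. Age is not given in the sources used here. Each mouse gave 1 library, and libraries are named by group and replicate number. Values are FPKM, in which fragments are divided by transcript length and by the size of the library, so levels of different genes can be compared per length.

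Ependymal cells line the ventricles of the brain and bear tufts of motile cilia that move cerebrospinal fluid. The shaft of a motile cilium holds a ring of microtubule doublets around a central pair. Outer and inner dynein arms on the doublets drive the beat, while radial spokes and the central pair set its pattern. Foxj1 is the transcription factor that switches on the motile cilium programme, and RFX factors act beside it through a promoter element called the X-box. In RNA of dissected brain tissue, ependymal RNA is diluted by that of neurons and other glia.

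Promoter sequence was held for 7 of the 10 members in the RefSeq table (GRCm38.p6), as windows from 250 bases before to 50 bases after each transcript start. The letters GTTGCC, the core of the X-box, were searched on both strands because RFX factors are the other known regulators of these genes. They occurred in 3 of the 7 member promoters (Hydin, Dynlrb2 and Ccdc153) and in 12.5% of all 32851 promoters of that length. The 60-base windows that hold them are shown 5′ to 3′, each on the + strand and upstream of the start in that table, with the core in capitals (for Hydin it is read on the opposite strand).
Hydin, chr8:110266917-110266976: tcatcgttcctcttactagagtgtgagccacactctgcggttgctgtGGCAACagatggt
Dynlrb2, chr8:116504937-116504996: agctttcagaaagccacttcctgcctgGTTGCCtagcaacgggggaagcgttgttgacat
Ccdc153, chr9:44240498-44240557: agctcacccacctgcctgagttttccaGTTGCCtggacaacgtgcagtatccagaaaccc
The core began 13 bases before the start in Hydin, 51 bases before it in Dynlrb2 and 152 bases before it in Ccdc153, counted from the start in the promoter table. For Hydin that start lies inside the locus given for the gene further on, and the core crosses the first base of that locus. The forkhead letters TGTTTAC were in 0 of the 7 and in 3.65% of all. A match describes the sequence and is not a binding site.

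Regional markers set the libraries apart before any cilium gene is considered. The summed level of 20 cerebellum genes was 1348 to 1855 FPKM across mock mice and 151 to 178 FPKM across irradiated mice, and 15 hindbrain and spinal cord genes summed to 119 to 131 and 4.43 to 7.34 FPKM. The 14 telencephalon genes summed to 171 to 258 FPKM across mock mice and 215 to 344 FPKM across irradiated mice, sums in which Penk alone (named after its values were seen) averaged 136.4 and 90.8 FPKM. Gene by gene, 13 of the 14 had a positive log2 change, with a median of 1.17. The groups did not overlap for 71.4% of them, beside 31.5% of all genes tested. In limma 4 were called higher (Neurod6, Drd1, Lmo3 and Bcl11b, the last 3 named after their values were seen) and 0 lower. That is 28.6% called higher, beside 3.48% of all genes tested. Of the genes called, Drd1 averaged 0.38 FPKM across mock mice and 1.62 FPKM across irradiated mice. It thus passed the minimum mean for testing (0.5 FPKM) only through the irradiated libraries. By library the telencephalon median of centred log2 values was -0.99 in mock 2, against -0.19 and -0.23 in mock 1 and mock 3. Region markers thus differed between the groups and also within them. Irradiation and regional makeup cannot be told apart in any difference given here. In bulk RNA, fewer ependymal cells and less RNA per cell cannot be told apart either.

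The ependymal cilium genes were detected in every library, and most did not separate the groups. Genes averaging 0.5 FPKM or more across all 6 libraries entered a limma test on log2(FPKM + 0.5), and 7 of the 10 members qualified, each with a mean above that minimum in both groups. Of these 7, 0 were called higher and 0 lower at a limma adjusted p under 0.05, while 7.72% of all 14585 genes tested were called (3.48% higher and 4.24% lower). Before adjustment, Rsph4a was higher and Foxj1 lower at p under 0.05 in limma (1 each). The share of all genes at that unadjusted p is not given here, so this count is not read as a result about the members. Rsph4a and Foxj1 were also the 2 members of the 7 (28.6%) whose groups did not overlap, against 31.5% of all genes tested. The median log2 change of the 7 was -0.20 (3 positive, 4 negative), beside -0.02 over all genes tested. Hydin, Dnah5 and Dnah11 lay below the minimum mean and are described from a fit without it, in which Dnah11 was called lower. The 95% intervals of the 7 tested members had their lowest bound at -1.07, for Dynlrb2, and their highest at 1.21, for Tmem212.

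**Figure D1:**
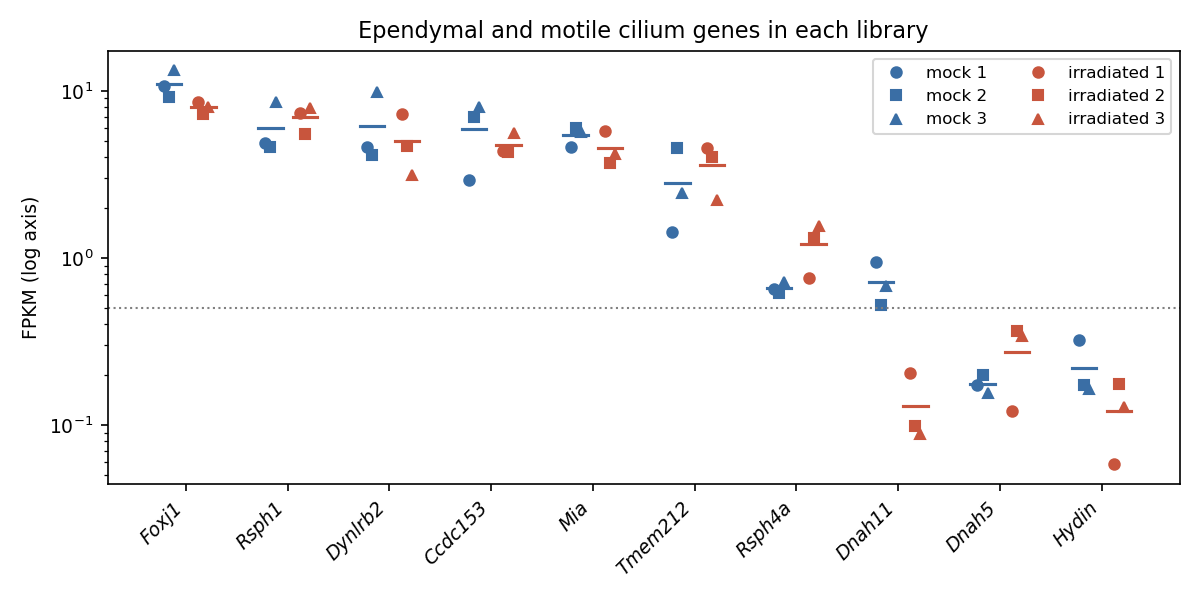
FPKM of each member (log axis) in each library, with mock libraries in blue, irradiated libraries in red, 1 symbol per replicate number and bars at the group means. The dotted line marks 0.5 FPKM, the minimum mean for testing, and only Foxj1, Rsph4a and Dnah11 have groups that do not overlap.

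Foxj1 lies on chromosome 11, from 116330704 to 116335499 (GRCm38.p6, as are all positions here). It was at 10.7, 9.16 and 13.2 FPKM in mock 1, 2 and 3, and at 8.61, 7.29 and 7.97 FPKM in irradiated 1, 2 and 3. All irradiated libraries were below all mock libraries, though irradiated 1 and mock 2 were close. The means were 11.0 ± 2.05 and 7.95 ± 0.66 FPKM (SD, n = 3 each), and the log2 change of -0.44 (SE 0.18, 95% interval -0.84 to -0.03) missed the threshold (limma adjusted p = 0.17). Foxj1 had the highest mean of the 10 members.

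The radial spoke members had higher mean log2 values in irradiated than in mock libraries, with neither past the threshold. Rsph1 encodes a protein of the spoke head (chromosome 17, 31255019 to 31277296). It measured 4.88, 4.59 and 8.52 FPKM across mock mice, against 7.40, 5.52 and 7.91 FPKM across irradiated mice. The groups overlapped, mock 3 being the highest library of all, and the log2 change was 0.23 (95% interval -0.34 to 0.81, limma adjusted p = 0.59). An annotated antisense transcript overlaps 2960 bases of the Rsph1 locus, and since the counting is not stated to have used strand, reads of the pair could be mixed.

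Rsph4a, another spoke head gene (chromosome 10, 33905111 to 33916021), measured 0.65, 0.61 and 0.72 FPKM across mock mice, against 0.76, 1.31 and 1.54 FPKM across irradiated mice. The groups did not overlap, but irradiated 1 lay just above mock 3 and far below the other irradiated libraries. The difference of 0.53 in log2 (SE 0.22, 95% interval 0.03 to 1.02) missed the threshold (limma adjusted p = 0.17). Without irradiated 1 the change was 0.73, at a limma adjusted p of 0.051. The pseudocount of 0.5 is close to the level of this gene, so its change is understated on this scale.

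The dynein members were at very different levels. Dynlrb2 encodes a light chain of the roadblock family found in ciliated cells (chromosome 8, 116505015 to 116515915). It measured 4.59, 4.14 and 9.85 FPKM across mock mice, against 7.23, 4.69 and 3.12 FPKM across irradiated mice. The highest library was mock 3 and the lowest irradiated 3, and between them irradiated 1 and 2 lay above mock 1 and 2. The log2 change was -0.25 (95% interval -1.07 to 0.57, limma adjusted p = 0.69), and it turned to 0.11 without mock 3 and to 0.018 without irradiated 3. Its paralogue Dynlrb1, a light chain used by cytoplasmic dynein in most cells (chromosome 2, 155236533 to 155250277), averaged 301.1 ± 73.5 FPKM across mock mice and 331.04 ± 72.1 FPKM across irradiated mice (log2 change 0.14, limma adjusted p = 0.75). Per length, Dynlrb1 was 39.2 to 63.6 times as abundant as Dynlrb2 in 5 libraries and 123.1 times in irradiated 3, where Dynlrb2 was lowest.

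Dnah5 is a heavy chain of the outer dynein arm (chromosome 15, 28154854 to 28472045). Its level was low, with 0.17, 0.20 and 0.16 FPKM across mock mice, against 0.12, 0.36 and 0.34 FPKM across irradiated mice. Irradiated 2 and 3 were above all mock libraries and irradiated 1 was below them all. In the fit with no minimum its log2 change was 0.18 (95% interval -0.13 to 0.50, limma adjusted p = 0.47).

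Dnah11, also an outer-arm heavy chain (chromosome 12, 117877982 to 118199043), showed the widest separation among the members. It measured 0.94, 0.52 and 0.68 FPKM across mock mice, against 0.20, 0.099 and 0.089 FPKM across irradiated mice. Every irradiated library was below the lowest mock library, and the ratio of the mock mean (0.71 ± 0.21 FPKM) to the irradiated mean (0.13 ± 0.064 FPKM; SD, n = 3 each) was 5.46. Among the 19679 genes above 0 in any library, 27.5% had groups that did not overlap in either direction. With a mean of 0.42 FPKM it was below the minimum for testing. In the fit with no minimum, where 19679 genes were tested and 4.4% of them were called in either direction (2.59% lower), its log2 change was -0.93 (SE 0.15, limma adjusted p = 0.021). That call was lost when any 1 of the 6 libraries was left out (limma adjusted p = 0.057 to 0.13). The cerebellum genes, at 1348 to 1855 and 151 to 178 FPKM in total, were lower in the same libraries, and their part in the Dnah11 result was not tested. Cdca7l, on the opposite strand, overlaps 725 bases of the Dnah11 locus. It measured 0.99, 0.24 and 0.76 FPKM across mock mice, against 0.55, 0.21 and 0.22 FPKM across irradiated mice, so its groups overlapped.

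Hydin, a large protein of the central pair whose loss in mice gives hydrocephalus (chromosome 8, 110266968 to 110610253), had the lowest mean of the members. It measured 0.32, 0.17 and 0.16 FPKM across mock mice, against 0.058, 0.18 and 0.13 FPKM across irradiated mice. The groups overlapped, with mock 1 high and irradiated 1 low. Its log2 change was -0.21 in the fit with no minimum (95% interval -0.48 to 0.055, limma adjusted p = 0.32), where the pseudocount exceeds its level in every library.

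Tmem212, Ccdc153 and Mia mark ependymal cells in expression atlases. Tmem212 encodes a membrane protein (chromosome 3, 27866065 to 27896391). It measured 1.42, 4.56 and 2.44 FPKM across mock mice, against 4.57, 4.01 and 2.21 FPKM across irradiated mice. Its groups overlapped over nearly their whole range, and the log2 change was 0.37 (95% interval -0.47 to 1.21, limma adjusted p = 0.55). Ccdc153 encodes a coiled-coil protein (chromosome 9, 44240677 to 44247306). It measured 2.93, 6.95 and 7.94 FPKM across mock mice, against 4.37, 4.28 and 5.61 FPKM across irradiated mice. The irradiated libraries all fell inside the mock range, and the log2 change of -0.20 (95% interval -0.94 to 0.54, limma adjusted p = 0.72) turned to 0.046 without mock 3. Mia encodes a secreted protein also known from cartilage (chromosome 7, 27179741 to 27181149). It measured 4.63, 6.01 and 5.63 FPKM across mock mice, against 5.78, 3.70 and 4.20 FPKM across irradiated mice. Irradiated 2 and 3 were below all mock libraries and irradiated 1 was not, with a log2 change of -0.24 (95% interval -0.70 to 0.22, limma adjusted p = 0.48). A gene model on the same strand overlaps 1345 bases of Mia, so the split of reads between them is uncertain.

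**Figure D2:**
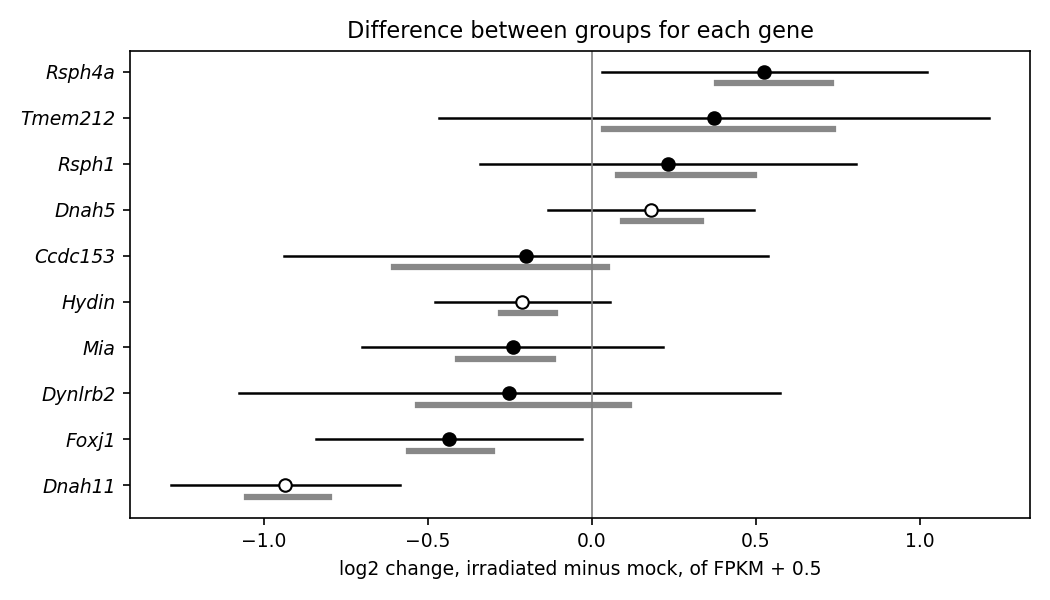
Log2 change of each member (irradiated minus mock, of FPKM + 0.5; points) with its 95% interval from limma (thin lines), and the range of the change when each library was left out in turn (grey bars). Filled points are the 7 members tested and open points the 3 below the minimum mean, from the fit with no minimum. The lowest value is that of Dnah11 at -0.93 and the highest that of Rsph4a at 0.53.

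The levels of the members covered a wide range. By the mean over all 6 libraries the order was Foxj1 (9.50 ± 2.17 FPKM), Rsph1 (6.47 ± 1.68), Dynlrb2 (5.60 ± 2.48), Ccdc153 (5.35 ± 1.86), Mia (4.99 ± 0.95), Tmem212 (3.20 ± 1.35), Rsph4a (0.93 ± 0.39), Dnah11 (0.42 ± 0.35), Dnah5 (0.23 ± 0.10) and Hydin (0.17 ± 0.087; SD, n = 6 each). Foxj1 was above Rsph1, and Tmem212 above Rsph4a, in 6 of 6 libraries. No other neighbours in this order kept it in every library, and from Rsph1 to Mia the means differed by less than their spread. The 3 members at the lowest levels were also the 3 with the longest transcripts, at 15783 nucleotides and 87 exons for Hydin, 15637 and 79 for Dnah5, and 14072 and 82 for Dnah11 (GENCODE M21). The other 7 ranged from 527 nucleotides (Dynlrb2) to 3650 (Rsph4a).

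The members did not rise and fall together from library to library. Mock 3 held the highest value of 4 members (Foxj1, Rsph1, Ccdc153 and Dynlrb2), whereas mock 1 held the highest of Hydin and Dnah11 and the lowest of Tmem212 and Ccdc153. Over the 7 tested members, the mean of log2 values centred per gene was -0.32, 0.022 and 0.30 in mock 1, 2 and 3 and 0.14, -0.070 and -0.065 in irradiated 1, 2 and 3. The irradiated libraries thus lay inside the mock range, and the spread among mock mice was wider than the distance between the groups. Over the 6 libraries, 14 of the 21 pairs of tested members had a positive Pearson r, with a median of 0.28. The highest r was 0.65, for Foxj1 and Dynlrb2, and the lowest -0.80, for Rsph4a and Mia. These are descriptions over 6 points that share library scale and regional makeup.

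Other genes of the motile cilium gave few calls. In 7 lists of cilium genes, with the members left out, 68 of the 98 genes in the table were tested, and 3 rose and 2 fell. The share called was 7.35%, beside 7.72% of all genes tested, and the share with groups that did not overlap was 27.9%, beside 31.5%. The median log2 change of the 68 was 0.16, with 45 positive and 23 negative.

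Radial spoke genes had the highest median of these lists, at 0.52 over 8 genes, of which 7 were positive. Of the 8, 1 rose, or 12.5% called beside 7.72% of all genes tested. That gene, Rsph9 of the spoke head, measured 13.4, 9.78 and 16.9 FPKM across mock mice, against 31.8, 22.5 and 35.6 FPKM across irradiated mice. Its groups lay apart, and log2 values differed by 1.14 (SE 0.24, limma adjusted p = 0.028). The call did not survive leaving out mock 1, mock 2 or irradiated 3 (limma adjusted p up to 0.11), and with no minimum mean (0.051). Rsph9 shares 6876 bases with Mrps18a on the opposite strand, a mitochondrial ribosomal gene at 83.3 FPKM on average across mock mice and 113.0 FPKM across irradiated mice, so reads of the pair could be mixed. Rsph3b and Nme5 of the spoke had log2 changes of 0.66 and 0.64 and missed the threshold (limma adjusted p = 0.051 and 0.064). Rsph3b passed it with a pseudocount of 1, with median centring and with quantile normalization (limma adjusted p = 0.048, 0.039 and 0.030).

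Among inner-arm and ruler genes the median was 0.11, and 1 of 12 rose and 0 fell (8.33% called, beside 7.72% of all genes tested). It was Drc1, a subunit of the nexin-dynein regulatory complex, with 2.45, 2.00 and 3.70 FPKM across mock mice, against 5.84, 5.57 and 11.9 FPKM across irradiated mice. All irradiated libraries were higher, irradiated 3 most of all, and the log2 change of 1.32 (SE 0.31, limma adjusted p = 0.040) was not called without mock 1, mock 2 or irradiated 3 (limma adjusted p up to 0.13). Dnah1, an inner-arm heavy chain, and Ccdc65, of the same complex as Drc1, had changes of 0.54 and 0.57 (limma adjusted p = 0.11 and 0.18). Dnah1 averaged 0.47 FPKM across mock mice and 0.91 FPKM across irradiated mice, and passed the minimum mean only through the irradiated libraries. In the limma fit with no minimum, 4.4% of all genes were called in either direction. Of 36 further genes of the cilium and ependymal lists that lay below the minimum mean, 0 were called higher and 1 lower in that fit. It was Dnah6, an inner-arm heavy chain (named after its values were seen), with 0.61, 0.55 and 0.51 FPKM across mock mice, against 0.074, 0.20 and 0.22 FPKM across irradiated mice. Its groups lay apart, and the log2 change was -0.68 (SE 0.11, limma adjusted p = 0.024). The call held without irradiated 1 (0.044) and was lost when any other library was left out (limma adjusted p = 0.073 to 0.12). Like Dnah11, it was low in the libraries with low cerebellum genes, whose part was not tested.

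Of 7 outer-arm genes besides the members, 0 rose and 1 fell (14.3% called, beside 7.72% of all genes tested). Ccdc63, a docking-complex protein known mainly from sperm, measured 2.03, 2.26 and 1.95 FPKM across mock mice, against 0.31, 0.16 and 0.15 FPKM across irradiated mice. It passed the minimum mean only through the mock libraries. Its log2 change was -1.88 (SE 0.18, limma adjusted p = 0.0010), and the call held under all 15 alternatives tried. It lay low in the same libraries as Dnah11 and the cerebellum genes, whose part was not tested. The Ccdc63 locus overlaps Myl2 on the opposite strand, at means of 0.74 FPKM across mock mice and 1.61 FPKM across irradiated mice. Ccdc151 and Dnal1, also of the outer arm, had changes of 0.85 and 0.46 (limma adjusted p = 0.070 and 0.19). Ccdc151 was called with median centring, with quantile normalization and when irradiated 1 was left out (limma adjusted p = 0.046, 0.035 and 0.044). Dnal1 shares 1368 bases with Pnma1 on the opposite strand, which was called higher (log2 change 0.91, limma adjusted p = 0.026).

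Dynein assembly factors, which build the arms in the cytoplasm, had 1 gene higher and 1 lower of 10, with a median of 0.28. The share called was 20.0%, beside 7.72% of all genes tested. Ccdc103 averaged 0.92 ± 0.13 FPKM across mock mice and 2.02 ± 0.50 FPKM across irradiated mice (SD, n = 3 each). Its log2 change of 0.81 was barely called (limma adjusted p = 0.046) and was not called without mock 1, 2 or 3, without irradiated 1 or without irradiated 3 (up to 0.17), or with the replicate number as a block (0.096). Ccdc103 shares 4013 bases with a noncoding gene model on the same strand, so the split of reads between them is uncertain. Spag1 went the other way, from 7.13 ± 1.29 to 3.58 ± 0.52 FPKM (log2 change -0.90, limma adjusted p = 0.028), and was not called without mock 2, mock 3 or irradiated 3 (up to 0.10). An annotated antisense transcript overlaps 4332 bases of Spag1, so reads of the pair could be mixed. The third gene by p, 1110004E09Rik, had a change of 0.59 (limma adjusted p = 0.15).

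Upstream regulators, central pair genes and proteins inside the tubules had 0 calls in limma among 9, 7 and 15 genes, with medians of -0.10, 0.18 and 0.19. Over all genes tested, 7.72% were called. At an unadjusted p under 0.05 in limma the regulators had 2 higher and 1 lower, the central pair 0 and 1, and the tubule proteins 2 and 0. The share of all genes at that p is not given here, so these counts are not read as a difference of the lists. Rfx3, an X-box factor of ciliated cells, averaged 2.31 ± 0.82 FPKM across mock mice and 4.70 ± 1.15 FPKM across irradiated mice (log2 change 0.90, limma adjusted p = 0.075), and it passed once irradiated 1 was left out (0.036), without both mock 2 and irradiated 1 (0.038) and with quantile normalization (0.031). Rfx4, its relative in neural progenitors and glia, averaged 5.09 ± 0.22 FPKM across mock mice and 3.47 ± 0.17 FPKM across irradiated mice (-0.50, limma adjusted p = 0.082). Ulk4, a kinase-like protein needed for ependymal cilia, had a change of 0.45 (0.19, limma), and its locus shares 5157 bases with Ctnnb1 on the opposite strand. In the central pair list, Cfap69, Spag6l and Spag6 had changes of -0.40, 0.32 and 0.28 (limma adjusted p = 0.19, 0.40 and 0.50). Spag6l and Spag6 are near-identical copies, so reads could be split between them. Among the tubule proteins, Efcab1, Cfap45 and Tekt4 had changes of 0.62, 0.99 and 0.99 (limma adjusted p = 0.064, 0.066 and 0.21). With quantile normalization Efcab1 and Cfap45 passed (limma adjusted p = 0.044 and 0.047). For Tekt4, mock 1 was at 0.77 FPKM and the other mock libraries at 3.46 and 4.73 FPKM, below 5.66, 5.34 and 5.19 FPKM in the irradiated libraries.

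Further ependymal markers had calls in both directions. Of 23 tested besides the members, 2 rose and 1 fell, with a median of -0.18. Over all genes tested, 7.72% were called. The groups did not overlap for 26.1% of the 23, beside 31.5% of all genes tested. With so few calls, these counts are not read as a difference of the list. Fam183b, a gene of ciliated cells, measured 3.57, 5.14 and 6.96 FPKM across mock mice, against 14.7, 8.23 and 15.6 FPKM across irradiated mice, with no overlap (log2 change 1.21, limma adjusted p = 0.044). Ak8, an adenylate kinase of ciliated cells, averaged 0.89 ± 0.45 FPKM across mock mice and 2.08 ± 0.12 FPKM across irradiated mice (log2 change 0.94, limma adjusted p = 0.0496). Each of these calls was lost in several alternatives: Fam183b was not called without mock 1, mock 2, irradiated 1 or irradiated 3 (limma adjusted p up to 0.16), nor Ak8 without any library but mock 3 (up to 0.16), nor either with the replicate block (0.059 and 0.084). Cd24a, a surface protein of ependymal cells and also of newborn neurons, measured 18.2, 24.6 and 22.4 FPKM across mock mice, against 11.2, 6.74 and 6.99 FPKM across irradiated mice. Its log2 change of -1.36 (SE 0.22, limma adjusted p = 0.0099) was called under all 15 alternatives.

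Genes of intraflagellar transport, which build primary as well as motile cilia in nearly all cells, had a median change of 0.11. Among 32 there were 0 calls in limma, beside 7.72% of all genes tested. At an unadjusted p under 0.05 in limma, 3 were higher and 2 lower, again with no share of all genes to set beside them. Wdr34, Kif17 and Ift80 came first by p, with log2 changes of 0.59, 0.96 and -0.53 (limma adjusted p = 0.052, 0.079 and 0.12). Wdr34 was called with median centring and with quantile normalization (limma adjusted p = 0.036 and 0.045), and Kif17 with quantile normalization and with the replicate block (limma adjusted p = 0.049 and 0.046). Kif17 shares 10898 bases on the same strand with Sh2d5, which was called higher (log2 change 0.99, limma adjusted p = 0.017), so the split of reads between them is uncertain. The share of this list whose groups did not overlap was 18.8%, below the 31.5% of all genes tested.

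**Figure D3:**
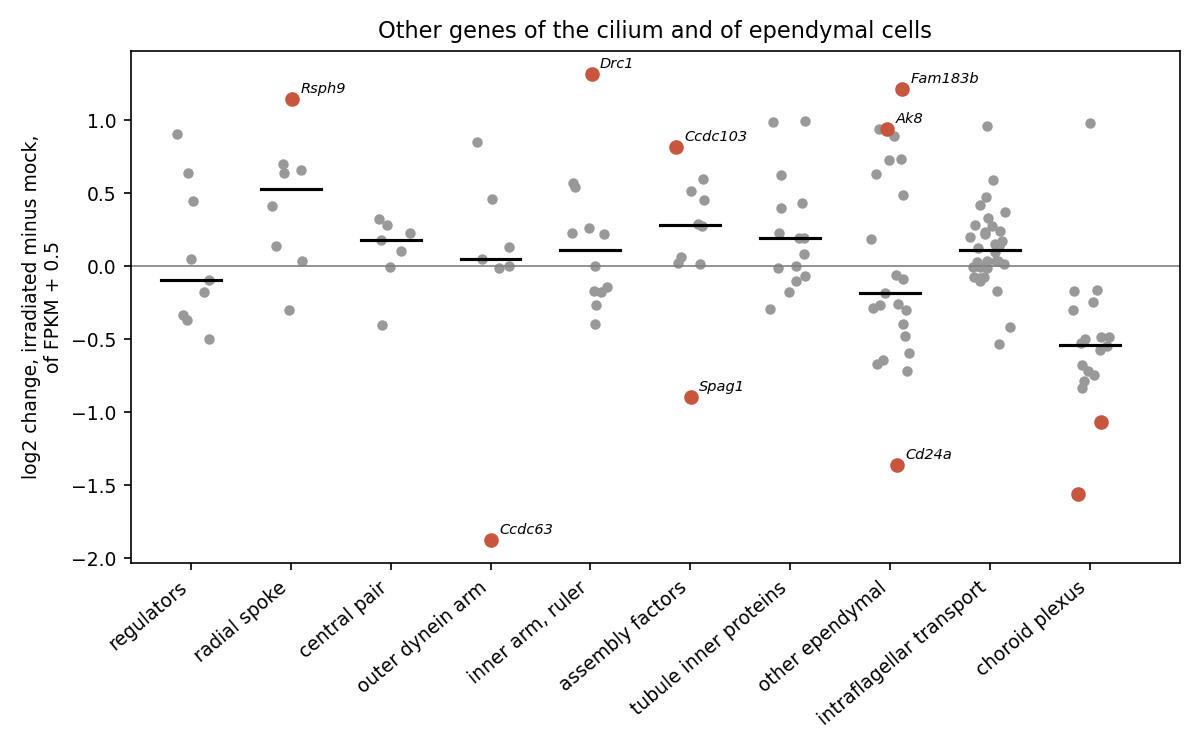
Log2 change (irradiated minus mock, of FPKM + 0.5) of each tested gene in 9 cilium and ependymal lists without the 10 members, and in the choroid plexus list. Red points passed a limma adjusted p of 0.05, grey points did not, and black bars are list medians. The radial spoke median is 0.52 and the choroid plexus median -0.54, and most other lists sit near 0.

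Markers of neighbouring cell types were set beside the members. The choroid plexus epithelium, which adjoins the ependyma and secretes cerebrospinal fluid, had a median log2 change of -0.54 over 18 genes, with 17 negative. Of these, 2 fell (Kcne2 and Enpp2, named after their values were seen) and 0 rose, or 11.1% called beside 7.72% of all genes tested. Its summed level was 1142 to 2507 FPKM across mock mice and 949 to 1199 FPKM across irradiated mice. Ttr, its most abundant product, measured 1736, 920 and 2134 FPKM across mock mice, against 833, 778 and 1016 FPKM across irradiated mice, and Kl measured 9.10, 4.77 and 9.24 against 2.64, 5.04 and 5.85 FPKM. Mock 1 and mock 3 were high in the plexus genes, whereas of the ependymal members mock 3 was high and mock 1 low.

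Astrocyte genes had a median of -0.16 over 15 (11 negative, 4 positive), with 2 lower (Aqp4 and S100b, the second named after its values were seen) and 0 higher. They summed to 2086 to 2406 FPKM across mock mice and 1534 to 1906 FPKM across irradiated mice. Aldoc (named after its values were seen) and S100b weigh heavily in these sums. They averaged 866 and 358 FPKM across mock mice, and 543 and 147 FPKM across irradiated mice. Aqp4, the water channel that ependymal cells also carry, measured 57.7, 64.8 and 50.9 FPKM across mock mice, against 28.3, 32.4 and 23.6 FPKM across irradiated mice. Gfap did not separate the groups, at 184.1, 187.4 and 313.7 and at 306.4, 230.8 and 276.0 FPKM. Tanycyte genes, which mark the ependyma of the third ventricle, had 2 higher and 1 lower of 10 and a median of 0.22. The 2 higher were Crym and Lhx2 and the lower Vcan (named after their values were seen), which neurons or precursor cells also express, and Rax, the defining tanycyte factor, was listed at 0 in at least 1 library. Meningeal fibroblast genes had 1 higher, Dcn (named after its values were seen), and 0 lower of 14, with a median of -0.09. The shares called were 13.3% of astrocyte, 30.0% of tanycyte and 7.14% of fibroblast genes, beside 7.72% of all genes tested. None of the 18 choroid plexus, 15 astrocyte or 14 fibroblast genes was at 0 in any library. The part of these cells in the values of the members was not tested.

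**Figure D4:**
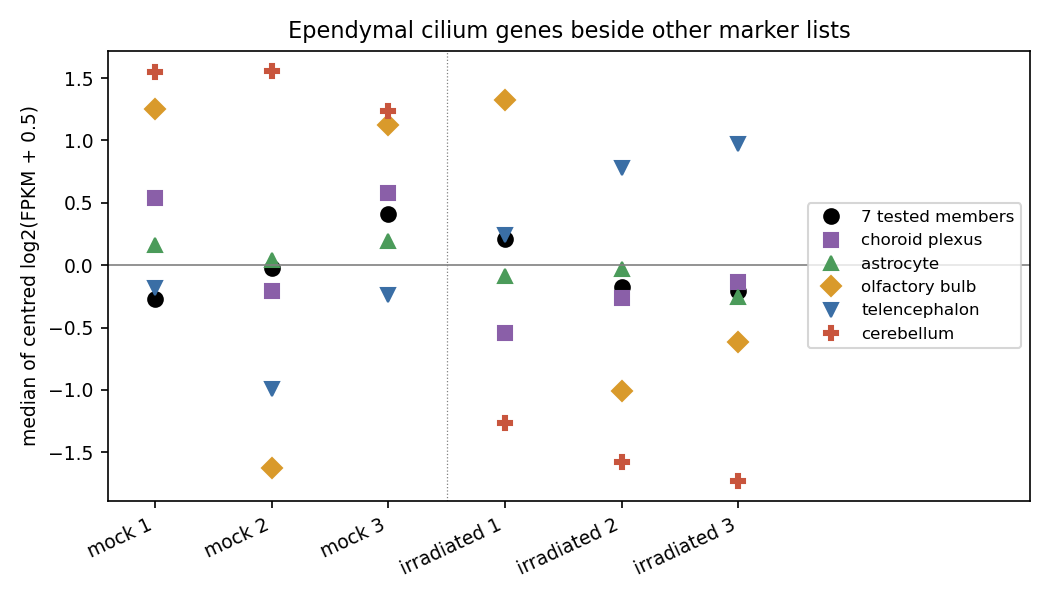
Median of log2(FPKM + 0.5), centred per gene, for the 7 tested members and for marker lists of other cell types and regions in each library. The cerebellum list separates the groups most widely (1.23 to 1.56 in mock, -1.73 to -1.26 in irradiated). The telencephalon list (-0.99 to -0.19 in mock, 0.24 to 0.97 in irradiated) and the astrocyte list (0.04 to 0.19, -0.25 to -0.03) also separate them. The olfactory bulb list varies within both groups, and the members stay between -0.27 and 0.41.

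The genes whose pattern over the 6 libraries was most like the mean of the tested members were sought among 4491 other genes with a range of at least 1 on the log2 scale. Among those reported, Nostrin (Pearson r of 0.92), Prrx2 (0.91) and 1700092M07Rik (0.90) came first. Ly96, A330048O09Rik, Epb4.1l4aos, Tma16, Tekt5 and 2310009A05Rik followed at 0.86 to 0.90. None of these was in the cilium or ependymal lists, and none was called between the groups (limma adjusted p = 0.45 to 0.99). The lists held Tekt1 to Tekt4 but not Tekt5, which shares their family name. Absence from the lists thus does not place a gene outside the cilium. With 6 points and 4491 candidates, such values describe these libraries only.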

How the data were processed

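The authors deposited FPKM values in a single table, a column for each library. Per the submitters' processing notes the tools included TopHat, Cufflinks and Cuffdiff and the build was mm10. Versions, annotation and counting settings: not given in the sources used here. After 1 leftover header line was removed, 23057 genes remained, 3378 of them at 0 throughout. FPKM summed to 472450 to 625782 per library. Among genes under 0.05 FPKM the commonest ratio to mock 1 was shared by at most 2.20%, so whole reads could not be recovered and depth is unknown apart from a rough read number in the labels.

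Genes averaging 0.5 FPKM or more (14585) were tested with limma 3.58.1 (R 4.3.3, trend, two-sided, Benjamini-Hochberg over all genes) on log2(FPKM + 0.5), which understates changes of low genes. An exact permutation of 3 against 3 cannot go below 0.1 and was not used. The members and the 17 lists were chosen with earlier results of these data known. Named were all members, up to 3 genes per cilium list by p, Dynlrb1, the first 2 genes of other lists and the 10 most alike, with withheld items not reported here. In simulated data on 14585 genes, 200 of them changed, 39% of log2 changes of 1 and 83% of changes of 2 were called. The simulated noise was independent between genes. In the data 1126 genes were called and regional makeup is shared between genes, so these shares do not give the sensitivity of the fit here. Alternatives were other pseudocounts (0.1, 1), filters, scalings, robust fitting, the replicate block and left-out libraries, with the tested genes kept.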

Additional observations from a re-analysis of the deposited data

How the results depend on the processing

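Of the 10 members, 0 were called in any alternative with a minimum mean, and 1 (Dnah11, lower) with no minimum, also with a pseudocount of 0.1, where its log2 change was -1.82 (this last setting and the left-out libraries with no minimum were added after the data were seen). Leaving out 1 library gave 0 members in either direction. Over all genes, leaving out 1 library gave 148 to 671 higher and 254 to 684 lower, and the cause was not tested. Small changes reversed: Ccdc153 ranged from -0.60 to 0.046 and Dynlrb2 from -0.53 to 0.11 with 1 library left out, Ccdc153 was 0.0061 without mock 2 and irradiated 1, and Dynlrb1 was -0.12 with quantile normalization and -0.017 without mock 2 and irradiated 1. With the replicate number as a block, 401 genes were higher and 394 lower, against 508 and 618, and no member was called. Deviations of same-numbered libraries correlated at -0.33, 0.19 and 0.20, and mock 1 correlated best with irradiated 2 (0.23). Region markers also differed within the groups and can shape these correlations, so they do not decide whether the replicate numbers pair the mice. Calls of Rsph9, Drc1 and Spag1 held in 10 of 15 alternatives, Fam183b in 8, and Ccdc103 and Ak8 in 5.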
